A study of Mus musculus with 6 samples.

Results

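The 10 genes described here encode the G1 cyclins (Ccnd1, Ccnd2, Ccnd3, Ccne1 and Ccne2), the kinases they activate (Cdk4, Cdk6 and Cdk2), the retinoblastoma protein (Rb1) and the transcription factor E2F1 (E2f1). They were chosen by name, and all 10 were found once each among 54532 genes. The measure was FPKM from RNA sequencing of 6 mouse libraries, 3 with PP2Ac knockdown (titled sh2) and 3 with the control genotype (titled shc), where PP2Ac stands for the catalytic part of the PP2A phosphatase. All 6 libraries are labelled MIN6, a beta cell line, and the labels name no lipid treatment, although the series title concerns lipotoxicity. MIN6 cells come from an insulinoma of a mouse that carried SV40 large T antigen under an insulin promoter, and large T antigen binds the retinoblastoma protein. The labels do not say whether a group is 1 clone or a pool, nor whether libraries came from separate cultures, so the p-values measure only the spread between these libraries, which may be technical.

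Cells pass from G1 into S phase when D cyclins with CDK4 or CDK6, and then E cyclins with CDK2, phosphorylate the retinoblastoma protein. This frees E2F factors, which switch on E2F1 itself, cyclin E and the DNA replication genes. Phosphatases of the PP1 and PP2A classes remove phosphate from the retinoblastoma protein and its relatives. In mouse beta cells cyclin D2 and CDK4 are known for their part in postnatal growth of the cell mass. RNA levels do not report on phosphorylation.

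The libraries held 14614737 to 15551377 reads with knockdown and 15270436 to 16030939 reads in control, as recovered from the FPKM values. Ppp2ca, which encodes the PP2A catalytic alpha isoform, averaged 10.8 ± 0.617 FPKM in knockdown and 37.6 ± 4.33 FPKM in control (SD, n = 3 each; limma adjusted p = 5.35e-06). The beta cell label was not borne out by defining markers. Of 12 such markers, 6 (among them Ins1, Ins2, Nkx6-1 and Slc2a2) were at 0 in all 6 libraries, where 3 reads would give at most 0.198 FPKM for Ins1, and 10 averaged below 1. The other 2, Pdx1 and Mafa, were higher in knockdown. Summed over all 12, beta cell markers came to 8.02 to 9.63 FPKM in knockdown and 2.98 to 4.65 FPKM in control. Markers of other cell types also differed between the groups. The 10 stromal markers, Vim and Col1a2 the most abundant, summed to 1151 to 1314 FPKM in knockdown and 504 to 577 FPKM in control, with 6 higher, none lower and Lum at 0. The 6 duct markers, Spp1 and Sox9 the most abundant, summed to 352 to 392 FPKM in knockdown and 681 to 849 FPKM in control, with 2 lower and Epcam at 0. The other 4 averaged below 1, among them Krt7, which lay the other way (0.251 FPKM in knockdown, 0.0178 FPKM in control). The 6 immune markers, mostly Cd68, summed to 2.77 to 3.35 FPKM in knockdown and 14.4 to 21.4 FPKM in control, with Adgre1, Cd3e and Itgam at 0. Only Cd68 was called, and the other 5 averaged below 1. Among those, Cd79a lay the other way (0.706 FPKM in knockdown, 0.342 FPKM in control). The 5 endothelial markers, mostly Eng, summed to 2.98 to 3.10 FPKM in knockdown and 1.15 to 1.45 FPKM in control, with 1 higher and Cdh5 at 0. All 4 besides Eng averaged below 1, among them Tek, which lay the other way (0.0185 FPKM in knockdown, 0.102 FPKM in control). Mitochondrial mRNA made up 1.29% ± 0.0590 of reads in knockdown and 3.03% ± 0.370 in control (SD, n = 3 each). The part of such differences in the values below was not tested, and fewer cells of a type cannot be told apart from less RNA per cell.

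Among the 10 genes, Ccnd3, Ccne1 and E2f1 rose in knockdown and Ccne2, Rb1, Cdk6 and Ccnd2 fell, while Ccnd1, Cdk4 and Cdk2 did not pass the test. The test was limma on log2(FPKM + 1), knockdown minus control. It covered the 11652 genes whose FPKM averaged 1 or more, and p-values were adjusted over all of them by the Benjamini-Hochberg method, with a threshold of 0.05. All 10 genes passed that filter, with 237 to 13253 reads per gene and library. Of all genes tested, 62.4% were called, 33.3% higher and 29.1% lower, so a count of 7 in 10 is near the background and is no result about these genes. The median log2 change was 0.017 over the 10 genes and 0.027 over all genes tested. None of the 10 changed by 1 or more on this scale, on which changes of low genes are understated. Both groups stood fully apart for the same 7 genes that were called, 3 with knockdown higher and 4 with knockdown lower, against 68.1% of all genes tested, 36.4% higher and 31.7% lower.

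**Figure D1:**
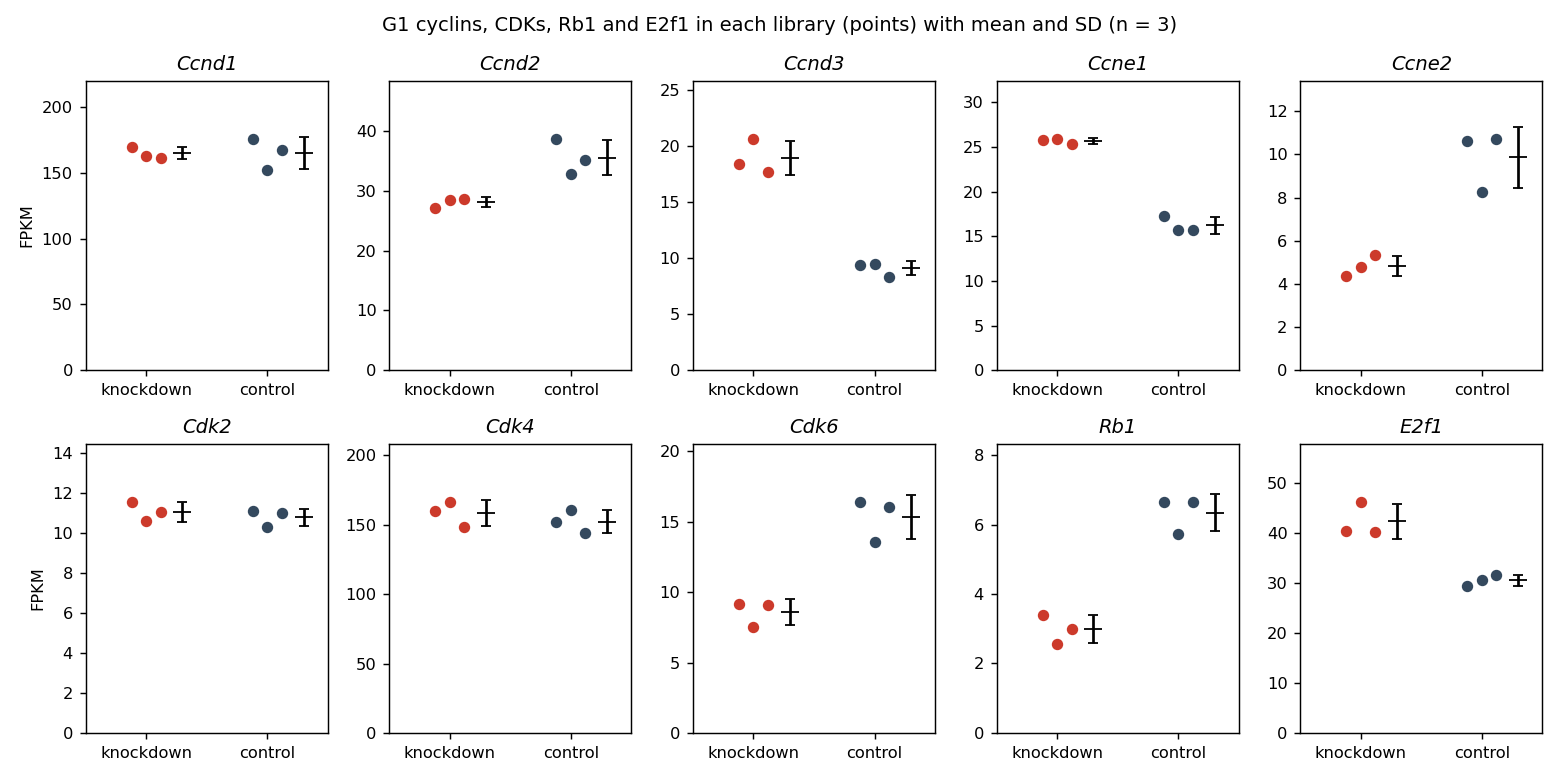
FPKM of each of the 10 genes (vertical axes, each from 0) in the 3 PP2Ac knockdown and the 3 control libraries (points), with mean and SD (bars, n = 3). The points of both groups overlap for Ccnd1, Cdk4 and Cdk2 and lie apart for the other 7 genes.

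Among the D cyclins Ccnd3 rose and Ccnd2 fell, while Ccnd1, by far the most abundant of them in FPKM, did not pass the test. Ccnd1, which links growth factor signals to the cell cycle (ENSMUSG00000070348, chromosome 7, 144929931 to 144939925, minus strand, GRCm38), had 170.0, 163 and 162 FPKM in the knockdown libraries, against 176, 152 and 168 FPKM in the control libraries. The knockdown values lie inside the control range. The log2 difference was 4.1e-05, with a 95% interval of -0.17 to 0.17 (SE 0.076, limma adjusted p = 1.000), so changes beyond 0.886-fold or 1.13-fold on this scale fall outside the interval.

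Ccnd2 (ENSMUSG00000000184, chromosome 6, 127125162 to 127152193, minus strand) had 27.1, 28.4 and 28.7 FPKM in knockdown, against 38.7, 32.8 and 35.1 FPKM in control. Every knockdown library was lower than every control library. Mean levels were 28.1 ± 0.846 FPKM in knockdown and 35.5 ± 2.97 FPKM in control (SD, n = 3 each), a log2 difference of -0.33 (SE 0.077, limma adjusted p = 0.00606).

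Ccnd3 (ENSMUSG00000034165, chromosome 17, 47505051 to 47599691, plus strand), the D cyclin best known from lymphocyte precursors, had 18.4, 20.6 and 17.7 FPKM in knockdown, against 9.41, 9.48 and 8.35 FPKM in control. This was the largest rise among the 10 genes, and all 3 knockdown values lay above all control values. The ratio of mean FPKM was 2.08, and the log2 difference was 0.98 (SE 0.083, limma adjusted p = 3.60e-05). The share of Ccnd3 in the D cyclin total was higher in every knockdown library than in every control library. It was 8.53%, 9.72% and 8.49% of summed D cyclin FPKM in knockdown, against 4.20%, 4.87% and 3.96% in control. The share of Ccnd2 was 13.3% ± 0.615 in knockdown and 16.9% ± 0.314 in control (SD, n = 3 each), and that of Ccnd1 77.8% ± 1.01 in knockdown and 78.7% ± 0.593 in control. A two-sided exact permutation test gave p = 0.1 for the Ccnd3 and Ccnd2 shares, as low as 3 against 3 libraries can go. For the Ccnd1 share the exact permutation test gave p = 0.3. The Ccnd3 and Ccnd2 shares restate the rise of Ccnd3 and the fall of Ccnd2, and are no separate support.

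The D cyclin total depends on the length by which reads are divided. Summed FPKM was 212 ± 3.71 in knockdown and 209.8 ± 14.9 in control (SD, n = 3 each; exact permutation p = 0.8), with overlapping groups. The deposited length of Ccnd3 is 8775 bases, which equals the union of its annotated exons in GENCODE M21, while its longest coding transcript has 2113 bases. With the longest coding transcript of each gene as the length, the D cyclin total was 328 ± 7.22 in knockdown and 299 ± 19.2 in control, and the groups did not overlap (exact permutation p = 0.1). On that basis Ccnd3 made up 23.9% ± 1.54 of the total in knockdown and 12.7% ± 1.26 in control, and Ccnd1 63.4% ± 1.58 in knockdown and 69.7% ± 1.16 in control. In summed reads, where no length enters, Ccnd3 made up 13.7% ± 0.991 in knockdown and 6.71% ± 0.710 in control (SD, n = 3 each). The comparison by transcript length was added after the data were seen.

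**Figure D2:**
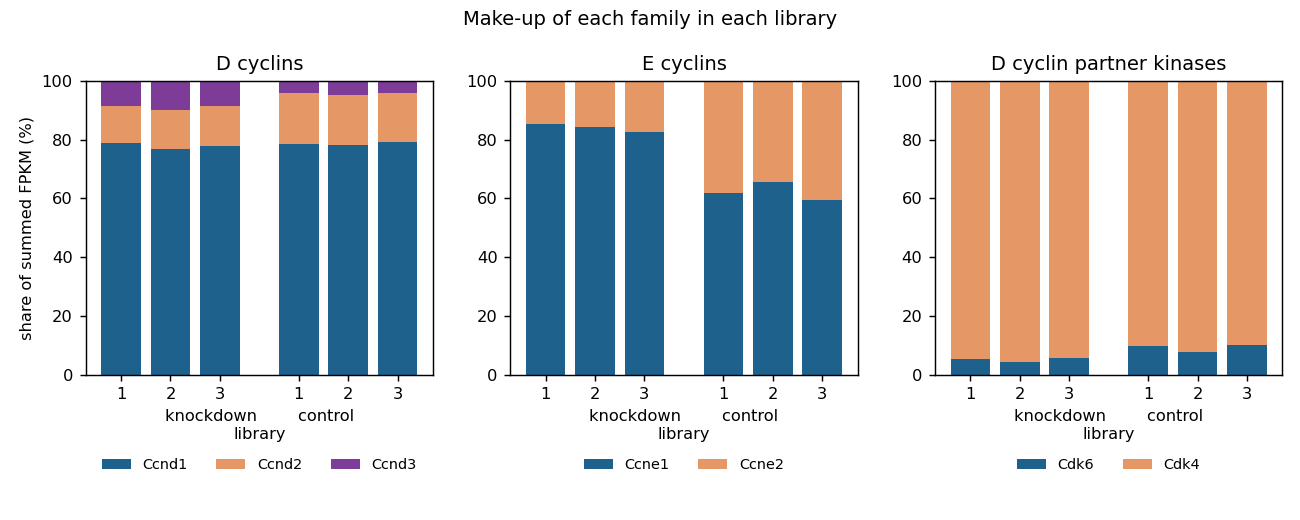
Share of summed FPKM (vertical axis, percent) of each gene within the D cyclins, the E cyclins and the pair Cdk4 and Cdk6, for each knockdown library and each control library (bars). Ccne1 takes 82.6% to 85.4% of the E cyclin bars in knockdown and 59.4% to 65.5% in control.

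The E cyclins, which activate CDK2 at the end of G1, moved in opposite directions. Ccne1 (ENSMUSG00000002068, chromosome 7, 38097984 to 38107534, minus strand) had 25.8, 25.9 and 25.3 FPKM in knockdown, against 17.3, 15.7 and 15.7 FPKM in control. The 3 knockdown libraries all lay above control. The ratio of mean FPKM was 1.58 and the log2 difference 0.63 (SE 0.067, limma adjusted p = 0.000101).

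Ccne2 (ENSMUSG00000028212, chromosome 4, 11191351 to 11204779, plus strand) had 4.39, 4.76 and 5.32 FPKM in knockdown, against 10.6, 8.24 and 10.7 FPKM in control. The highest knockdown library stayed below the lowest control library. Mean FPKM in knockdown was 49.0% of that in control, and the log2 difference was -0.89 (SE 0.11, limma adjusted p = 0.000225), the largest fall among the 10 genes on this scale, next to Rb1 at -0.88. The summed FPKM of both E cyclins was 30.5 ± 0.308 in knockdown and 26.1 ± 2.02 in control (SD, n = 3 each; exact permutation p = 0.1, the smallest possible). In summed reads the groups overlapped, with 1297, 1311 and 1286 in knockdown, against 1330, 1094 and 1300 in control (exact permutation p = 0.9). These reads were not scaled for library depth, which was lowest in knockdown library 3 (14614737 reads) and highest in control library 3 (16030939 reads). The overlap in reads therefore does not bear on the FPKM sum apart from depth. Within the FPKM sum Ccne1 held 84.2% ± 1.42 in knockdown and 62.3% ± 3.08 in control (exact permutation p = 0.1). This share restates the changes of Ccne1 and Ccne2, whose groups stood apart in opposite directions, and is no separate support.

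The kinases divided too, since Cdk6 fell while its close relative Cdk4 and the E cyclin partner Cdk2 did not pass the test. Cdk6 (ENSMUSG00000040274, chromosome 5, 3341485 to 3531008, plus strand) had 9.17, 7.53 and 9.08 FPKM in knockdown, against 16.4, 13.6 and 16.0 FPKM in control. Its groups did not overlap. Mean FPKM in knockdown was 56.0% of control, with a log2 difference of -0.77 (SE 0.10, limma adjusted p = 0.000293).

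Cdk4 (ENSMUSG00000006728, chromosome 10, 127063534 to 127067920, plus strand) had 159.7, 167 and 148 FPKM in knockdown, against 152, 160.5 and 144 FPKM in control. The groups overlapped, and the log2 difference was 0.054 with a 95% interval of -0.12 to 0.23 (limma adjusted p = 0.556). Cdk2 (ENSMUSG00000025358, chromosome 10, 128697939 to 128705031, minus strand) had 11.6, 10.6 and 11.0 FPKM in knockdown, against 11.1, 10.3 and 11.0 FPKM in control. Its log2 difference was 0.034 with a 95% interval of -0.12 to 0.19 (limma adjusted p = 0.685), and the groups overlapped. These intervals leave room for changes of up to 1.17-fold for Cdk4 and 1.14-fold for Cdk2.

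Cdk4 was far more abundant per length than Cdk6, and the groups overlapped for their total in FPKM as deposited. The sum was 167 ± 8.61 FPKM in knockdown and 168 ± 6.87 FPKM in control (SD, n = 3 each; exact permutation p = 1.0). In it Cdk6 held 5.43%, 4.32% and 5.77% in knockdown, against 9.74%, 7.79% and 9.98% in control. The groups did not overlap for this share (exact permutation p = 0.1). It restates the fall of Cdk6 beside Cdk4, which did not pass the test, and is no separate support. In reads, to which the long Cdk6 transcript adds more, the sum was 9672 ± 499 in knockdown and 11334 ± 283 in control (exact permutation p = 0.1). These reads were not scaled for library depth. With mitochondrial genes, rRNA and Gm23935 removed and sums set equal, the FPKM total was also lower in knockdown, by a difference of -10.96 FPKM (exact permutation p = 0.1).

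The promoters of the 3 kinase genes are shown because Cdk4 is a known target of MYC, which binds the E-box CACGTG, and because Myc fell while Cdk4 did not pass the test; they were chosen for show after these values were seen. Myc averaged 41.8 ± 1.89 FPKM in knockdown and 57.8 ± 0.632 FPKM in control (SD, n = 3 each), a log2 difference of -0.46 (limma adjusted p = 0.000406). The windows run from 250 bases before to 50 bases after the RefSeq start (GRCm38.p6), 5′ to 3′ on the gene's strand. The Cdk6 window lies inside the deposited gene, which begins at 3341485, so it does not cover the start of that gene. Capitals mark CACGTG, which reads the same on both strands, in Cdk4 and Cdk6, and in Cdk2 a match on either strand to the E2F-type motif TTTNNCGC, with C or G at each N.
Cdk4, chr10:127063285-127063584, plus strand: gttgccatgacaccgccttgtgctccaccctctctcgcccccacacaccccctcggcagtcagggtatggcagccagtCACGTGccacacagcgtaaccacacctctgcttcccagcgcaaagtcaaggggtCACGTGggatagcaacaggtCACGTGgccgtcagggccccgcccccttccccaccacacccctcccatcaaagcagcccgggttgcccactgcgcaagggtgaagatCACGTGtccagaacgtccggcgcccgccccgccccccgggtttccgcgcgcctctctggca
Cdk6, chr5:3343643-3343942, plus strand: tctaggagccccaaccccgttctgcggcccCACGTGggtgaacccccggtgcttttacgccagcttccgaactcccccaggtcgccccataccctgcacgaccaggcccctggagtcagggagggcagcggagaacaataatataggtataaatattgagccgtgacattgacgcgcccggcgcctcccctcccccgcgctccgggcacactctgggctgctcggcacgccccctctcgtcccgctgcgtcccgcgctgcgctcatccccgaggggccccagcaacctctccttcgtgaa
Cdk2, chr10:128705002-128705301, minus strand: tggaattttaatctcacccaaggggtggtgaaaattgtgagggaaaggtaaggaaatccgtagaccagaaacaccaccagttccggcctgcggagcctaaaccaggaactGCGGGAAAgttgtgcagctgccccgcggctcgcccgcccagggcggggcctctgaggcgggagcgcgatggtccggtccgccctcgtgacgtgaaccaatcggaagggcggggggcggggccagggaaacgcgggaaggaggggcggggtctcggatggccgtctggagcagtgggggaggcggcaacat
The Cdk4 window holds 4 E-boxes, which begin 172, 118, 98 and 11 bases before the start, and the Cdk6 window holds 1, at 220 bases before it. Of 32851 promoter windows in the same table, 7.15% hold at least 1 CACGTG and 8 windows hold 4 or more. The Cdk2 match begins 140 bases before the start, and 2.26% of all windows hold this motif. RefSeq windows were matched by symbol for 6 of the 10 genes, and those of E2f1, Ccne1 and Ccnd3 held neither set of letters. The E2f1 window, chr2:154569377-154569676 on the minus strand, lies inside the deposited gene, which reaches 154569892. It therefore does not cover the start of that gene, where no letters were searched. A match is a description of these letters only and shows no binding.

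**Figure D3:**
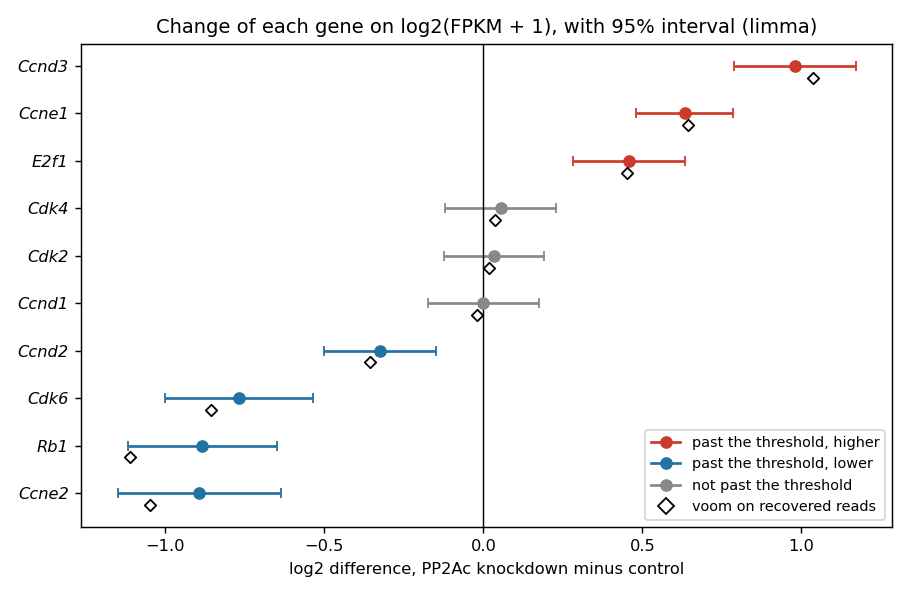
Log2 difference of each gene, knockdown minus control, on log2(FPKM + 1) (horizontal axis) with its 95% interval from limma (bars), and the value from voom on recovered reads (diamonds). Ccnd3, Ccne1 and E2f1 lie above 0, Ccnd2, Cdk6, Rb1 and Ccne2 below 0, and the intervals of Cdk4, Cdk2 and Ccnd1 include 0.

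At the end of this pathway the repressor fell and the activator rose. Rb1 (ENSMUSG00000022105, chromosome 14, 73183673 to 73325822, minus strand), whose protein holds E2F factors inactive, had 3.40, 2.57 and 2.99 FPKM in knockdown, against 6.66, 5.72 and 6.65 FPKM in control. No knockdown library reached the lowest control library. Mean FPKM in knockdown was 47.1% of control and the log2 difference was -0.88 (SE 0.10, limma adjusted p = 0.000155). Rb1 was the least abundant of the 10 genes on the FPKM scale in both groups, and its 237 to 316 reads in knockdown libraries carry a counting error of up to 6.50%.

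E2f1 (ENSMUSG00000027490, chromosome 2, 154559407 to 154569892, minus strand) had 40.5, 46.3 and 40.2 FPKM in knockdown, against 29.4, 30.5 and 31.5 FPKM in control. All knockdown libraries were higher than all control libraries. The ratio of mean FPKM was 1.39 and the log2 difference 0.46 (SE 0.076, limma adjusted p = 0.00104). Within each library the ratio of E2f1 to Rb1 in FPKM was 11.9, 18.0 and 13.4 in knockdown, against 4.41, 5.33 and 4.74 in control. This ratio was chosen after the values were seen. Its groups had to stand apart, since those of E2f1 and of Rb1 did so in opposite directions, so it was not tested.

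In order of FPKM the 10 genes ran, in knockdown, Ccnd1, Cdk4, E2f1, Ccnd2, Ccne1, Ccnd3, Cdk2, Cdk6, Ccne2 and Rb1. In control the order was Ccnd1, Cdk4, Ccnd2, E2f1, Ccne1, Cdk6, Cdk2, Ccne2, Ccnd3 and Rb1. Neighbours whose libraries overlapped, so that they did not differ beyond their spread, were Ccnd1 with Cdk4 in both groups, and in control also Ccne1 with Cdk6, Cdk2 with Ccne2 and Ccne2 with Ccnd3. With the longest coding transcript as the length, Cdk4 stood first in both groups at 251 ± 14.7 FPKM in knockdown and 241 ± 12.7 FPKM in control. Ccnd3 then stood at rank 3 in knockdown (78.4 ± 6.38 FPKM) and rank 4 in control (37.7 ± 2.62 FPKM), in place of rank 6 and rank 9 (SD, n = 3 each). Levels between these genes are therefore no firmer than the length behind them, whereas a gene's own difference between the groups does not depend on its length apart from the added 1 in the log.

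**Figure D4:**
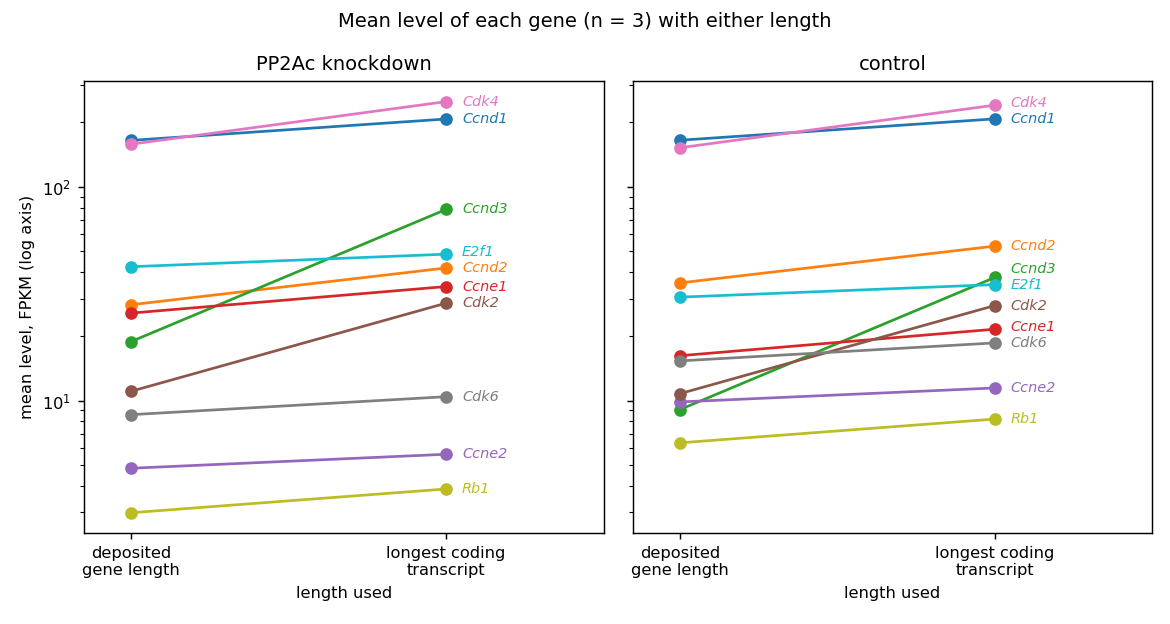
Mean FPKM of each gene (vertical log axis, n = 3) over the deposited gene length and over the longest coding transcript, in knockdown and in control libraries. Ccnd3 moves up the most, to 78.4 FPKM in knockdown and 37.7 FPKM in control, and Rb1 is lowest throughout.

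Most of the 10 loci overlap another gene, and the strand setting of the counts is not given, so reads of opposite strands may not have been told apart. Rb1 shares 488 of its 6015 exon bases with Rcbtb2 on the plus strand, which averaged 3.92 ± 0.145 FPKM in knockdown and 1.43 ± 0.190 FPKM in control and was called higher. It shares 408 bases with Lpar6, which averaged 1.63 ± 0.168 FPKM in knockdown and 1.74 ± 0.179 FPKM in control and was not called. Cdk4 shares 641 of 3249 exon bases with Tspan31, which was higher in knockdown (57.7 ± 5.51 FPKM) than in control (47.4 ± 2.96 FPKM). Ccnd3 shares 361 bases with Bysl, also called higher, Ccne2 609 bases with Ints8 and Ccnd1 1100 bases with Oraov1, both not called. Ccne1 and E2f1 overlap no other gene of the table. The pseudogene Ccnd3-ps reached at most 0.152 FPKM. The part of these neighbours in the values above was not tested.

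The profile nearest to that of Ccnd3, by Euclidean distance of mean-centred log2(FPKM + 1) over the 6 libraries among 10005 other coding genes, was that of Qpctl (distance 0.0989), followed by Gbe1 (0.109) and Ift22 (0.123). For Ccne2 they were Cav2 (0.0939), Slk (0.102) and Atxn3 (0.125). Qpctl averaged 5.72 FPKM in knockdown and 2.36 FPKM in control, and Cav2 26.3 FPKM in knockdown and 50.7 FPKM in control.

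Around the 10 genes, 6 lists of the same pathway held 95 genes, of which 90 passed the filter, 44 rose, 18 fell and 28 did not pass the test. The called share was 68.9%, beside 62.4% of all genes tested (33.3% higher and 29.1% lower). With mitochondrial genes, rRNA and Gm23935 removed and sums set equal, 35 were higher and 21 lower. Without this removal, the tested list genes had a median change of 0.22 on the log2 scale, against 0.027 over all genes tested. Among the other pocket protein, E2F and DP genes, 6 of 11 rose, 2 fell and 3 did not pass, with a median of 0.25; 72.7% were called, beside 62.4% of all genes. Rbl2, a relative of Rb1 that acts in resting cells, rose to 4.18 ± 0.681 FPKM in knockdown, against 2.23 ± 0.454 FPKM in control (limma adjusted p = 0.00242). The activator E2f2 fell to 5.40 ± 0.122 FPKM in knockdown, against 8.14 ± 0.741 FPKM in control (limma adjusted p = 0.000794). The repressors E2f8 and E2f5 rose, with log2 differences of 0.42 and 0.38.

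Of 7 CDK inhibitor genes, 4 were tested, with 2 higher, 1 lower and 1 not past the threshold; this is 75% called, beside 62.4% of all genes. Cdkn2c and Cdkn2d, which block CDK4 and CDK6, rose by log2 differences of 0.36 (37.7 ± 0.764 FPKM in knockdown and 29.2 ± 3.54 FPKM in control) and 0.35 (31.8 ± 2.42 FPKM in knockdown and 24.8 ± 0.773 FPKM in control). Cdkn1b, which binds cyclin E with CDK2, fell to 9.67 ± 0.416 FPKM in knockdown, against 11.7 ± 0.259 FPKM in control (limma adjusted p = 0.00913). Cdkn1a averaged 118 ± 7.03 FPKM in knockdown and 142 ± 29.4 FPKM in control and did not pass (limma adjusted p = 0.140). Cdkn2a and Cdkn2b were listed at 0 in all 6 libraries.

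Genes listed under CDK activation and cyclin turnover, whichever way they act, numbered 18. Of these, 8 rose, 6 fell and 4 did not pass the test, with a median log2 change of 0.15. That is 77.8% called, beside 62.4% of all genes. Gsk3b, whose kinase marks cyclin D1 for export and decay, fell to 9.36 ± 0.126 FPKM in knockdown, against 15.9 ± 0.666 FPKM in control (limma adjusted p = 5.04e-05). Cul3, a ubiquitin ligase scaffold that acts on cyclin E, fell by a log2 difference of -0.89. Fbxo4 and Cryab, described as partners in cyclin D1 ubiquitination, rose by 0.65 and 1.60 on the log2 scale. Of 17 tested genes listed under cyclin D1 induction, 8 rose, 3 fell and 6 did not pass (median 0.22), a called share of 64.7%, near the 62.4% of all genes. This list does not sort genes by whether they raise or lower cyclin D1, and Foxo1 and Foxo3 count among its higher genes. In the list Foxm1 rose to 67.0 ± 2.41 FPKM in knockdown, against 37.7 ± 5.30 FPKM in control, Stat5b rose by 0.63 and Creb1 fell by 0.72 on the log2 scale.

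E2F target genes did not move as one, although E2f1 rose and Rb1 fell. The list holds 30 genes, all tested: 13 rose, 5 fell and 12 did not pass, a called share of 60.0%, near the 62.4% of all genes, and the median log2 change was 0.12. Mybl2, a cell cycle transcription factor gene, rose to 24.2 ± 0.749 FPKM in knockdown, against 12.7 ± 0.325 FPKM in control (limma adjusted p = 1.56e-05). Ung, which removes uracil from DNA, Ccna2, the S phase cyclin, and Uhrf1, a DNA methylation factor, rose by 1.42, 0.70 and 0.64 on the log2 scale. Of the replication helicase genes Mcm2 to Mcm7, Mcm2 was lower, Mcm4 and Mcm5 higher and the other 3 not past the threshold; the helicase genes were named after their values were seen.

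Of 10 proliferation markers, 7 rose, 1 fell and 2 did not pass, with a median log2 change of 0.51. The called share was 80%, beside 62.4% of all genes, of which 33.3% were higher. Cdc20, an activator of the anaphase ubiquitin ligase, rose to 159 ± 4.04 FPKM in knockdown, against 76.4 ± 18.5 FPKM in control, and Plk1, a mitotic kinase gene, rose to 65.6 ± 3.10 FPKM in knockdown, against 28.4 ± 6.80 FPKM in control. Aurkb and Birc5, of the chromosomal passenger complex, rose by 0.80 and 0.50 on the log2 scale. The 1 lower marker was Mki67, with 10.6, 9.98 and 14.4 FPKM in knockdown, against 22.4, 22.4 and 28.6 FPKM in control, so the groups did not overlap. Mki67 was named after its values were seen.

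**Figure D5:**
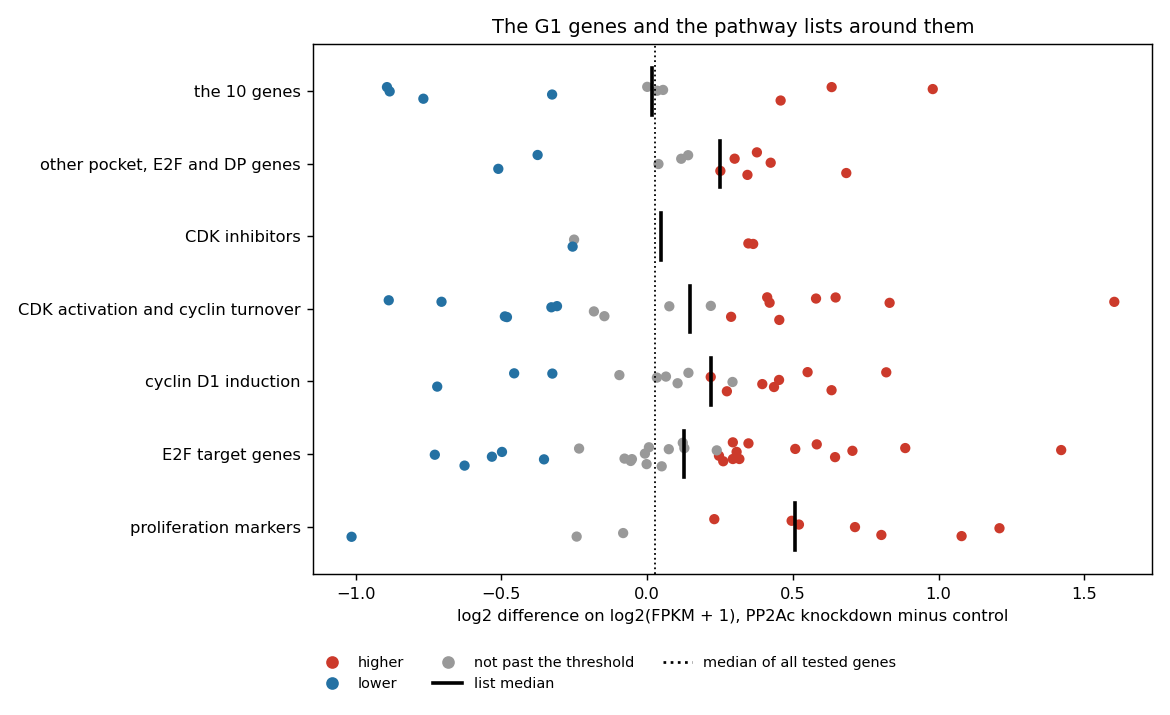
Log2 difference on log2(FPKM + 1), knockdown minus control (horizontal axis), of each tested gene (points) in the set of 10 genes and in 6 pathway lists, with list medians (black bars) and the median of all tested genes (dotted line). The 10 genes spread to both sides around 0, while the median of the proliferation markers lies at 0.51.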

How the data were processed

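The authors deposited 1 table of FPKM values (reads scaled for gene length and a total for each library) with each gene's position and length. Per the labels' protocols, RNA was taken up in Trizol and libraries were made with an Illumina TruSeq kit; per the submitters' processing notes the builds are GRCm38 and mm10, and for the aligner, the counter and the strandedness nothing is given in the sources used here. The deposited gene lengths of the 10 genes equal their exon unions in GENCODE M21.

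In every library FPKM times length came out as whole multiples of 1 step (100% of values above 0, tolerance 0.01), which gave the reads. The library totals implied by these steps were not the recovered reads. They were 15313409 against 15551377 recovered in knockdown library 2, and 16418113 against 16030939 in control library 3. Median-of-ratios size factors of the deposited FPKM were 1.01 in every library, so the deposited values were already level on that measure. The alternative with that scaling therefore divided all libraries by the same value and was no separate check of the calls. The test was limma 3.58.1 (R 4.3.3; lmFit, eBayes with trend) on log2(FPKM + 1), mean FPKM of at least 1, Benjamini-Hochberg adjustment, threshold 0.05; sums and shares used two-sided exact permutation tests. The test was run on simulated data first. Tables used Python 3.11.15. Replicates were not copies of each other (chi-square per degree of freedom 7.15 to 11.0 within groups); counting errors cover counting only. The rule named all 10 genes, Ppp2ca, up to 4 genes per pathway list with the smallest p, up to 2 abundant genes per marker list and the 3 nearest profiles. The genes and lists were chosen with earlier results of these data known. Alternatives were other pseudocounts, filters, scalings, variance models, leaving out each library, and a block for the replicate number; voom on the recovered reads and the transcript lengths were added after seeing the data.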

Additional observations from a re-analysis of the deposited data

How the results depend on the processing

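The 7 called genes kept their direction and their call in every alternative in which they were tested; Rb1 was not tested at a mean FPKM of at least 5. Their log2 changes ran from 0.92 to 1.06 for Ccnd3, 0.56 to 0.68 for Ccne1, 0.39 to 0.49 for E2f1, -0.40 to -0.27 for Ccnd2, -0.86 to -0.69 for Cdk6, -1.05 to -0.83 for Ccne2 and -1.11 to -0.81 for Rb1. Ccnd1, Cdk4 and Cdk2 stayed past no threshold, and the sign of these small differences turned in some settings. With mitochondrial genes, rRNA and Gm23935 removed and sums set equal, it was -0.074 for Ccnd1, -0.035 for Cdk2 and -0.020 for Cdk4; for Ccnd1 it was also -0.018 with upper quartile scaling, -0.014 with protein-coding genes only and -0.020 with voom. With 1 library left out Ccnd1 ran from -0.058 (without control library 2) to 0.046, and was -0.022 without knockdown library 1.

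The D cyclin total, knockdown minus control, was -0.604 FPKM with upper quartile scaling, -10.1 FPKM after the removal above and -666 in summed reads, and ran from -5.61 (without control library 2) to 9.21 FPKM with 1 library left out. Summed reads were not scaled for library depth, at 14614737 to 15551377 reads in knockdown and 15270436 to 16030939 reads in control. The difference of -666 therefore does not show a lower D cyclin total apart from depth. The sum of Cdk4 and Cdk6 differed by -10.96 FPKM after the same removal (groups apart, exact permutation p = 0.1), by 1.20 FPKM with transcript lengths, and by -4.53 to 3.90 FPKM with 1 library left out, positive without knockdown library 3 (3.90) or control library 2 (2.35). The cause was not tested. Over all genes, 2208 were lower with a mean FPKM of at least 5, against 3388, since fewer genes were tested, and the other pocket, E2F and DP genes called were 5 in place of 8. Voom on recovered reads called 7378 genes, against 7267. The planned edgeR and DESeq2 tests on recovered reads were not run; voom was run on those reads in their place.

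Deviations from the group mean in same-numbered libraries had correlations of -0.011, 0.16 and 0.052 for numbers 1, 2 and 3. Pairs with unlike numbers ran from -0.18 to 0.13. With 3 libraries per group these correlations cannot tell whether libraries with the same number share more than that number. With the replicate block 7363 genes were called, and the calls of the 10 genes stayed as they were.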
